A study of Mus musculus with 6 samples.

Results

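JmjC histone demethylases are the enzymes that remove methyl groups from histone lysines with a Jumonji C domain, and 10 of their genes are described here: Kdm2a, Kdm2b, Kdm3a, Kdm3b, Kdm4a, Kdm4b, Kdm4c, Kdm5a, Kdm5b and Kdm6b. They were chosen by symbol from the 57010 gene identifiers of the count table. All 10 had 299 to 3983 counts in each of the 6 libraries and passed the filter on low counts, as did 13442 genes in all. The libraries came from CT26, a mouse colon carcinoma cell line, and fall into 2 groups of 3: cells with a control guide (sgControl) and cells with a guide against Cdk10 (sgCdk10), the gene of cyclin-dependent kinase 10. The groups share the line and the library kit. No other allele, agent or time point is in the labels, and the guide's target site, and whether the cells were a pool or 1 clone, were given neither by the labels nor by the design text.

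JmjC demethylases are dioxygenases. They use molecular oxygen, ferrous iron and 2-oxoglutarate to oxidise a methyl group, which leaves as formaldehyde while succinate is formed, so oxygen and the metabolites of the citric acid cycle bear on their activity. Transcription factors of the HIF family, which accumulate when oxygen is low, are known to raise transcription of several of the genes, and the selection names Kdm3a, Kdm4b and Kdm4c as HIF-induced. The enzymes differ in substrate: KDM3 and KDM4 enzymes act on lysine 9 of histone H3, KDM4 and KDM2 enzymes on lysine 36, KDM5 enzymes on lysine 4, and KDM6B on lysine 27.

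The libraries held 17532202 to 19258309 counts. Cdk10 itself had 21.5, 19.5 and 20.1 CPM (counts scaled to library size with TMM factors) in sgControl replicates 1 to 3 and 11.3, 12.9 and 10.5 in sgCdk10, which is -0.82 in log2 terms (SE 0.08, edgeR, adjusted p = 8.42e-09). sgControl replicate 3 stood apart. Its counts differed from those of replicates 1 and 2 by 4.08 and 4.14 times sampling noise (chi-square over its degrees of freedom), against 1.53 to 1.61 for the other pairs within groups. Calls of the 10 JmjC genes that change without it are given both ways. Of 11 intestinal epithelial markers and keratins 3 were tested, Epcam had 0 counts in every library and Cdh1 at most 1, while Krt18 and Krt20 were present and rose by 0.65 and 0.51 on the log2 scale. Muc2, with 7 to 16 counts, fell by 0.93 (adjusted p = 0.0305), a call kept in 6 of 13 alternatives and lost without filtering, with DESeq2, and without any 1 library other than sgControl replicate 1. The summed level of the list was 37.0 to 40.8 CPM in sgControl and 58.1 to 59.4 in sgCdk10. Of 16 leukocyte markers 5 had 0 counts throughout, among them Adgre1 and Cd3e, and Ptprc had at most 2. Their sum, 50.2 to 56.8 CPM in sgControl and 56.7 to 59.4 in sgCdk10, came mostly from Cd14 and Cd68. On the log2 scale Cd68 rose by 0.57, and Cd14 was not called, at 0.0035. Of 12 fibroblast and endothelial markers, with sums of 59.0 to 63.6 and 67.0 to 71.9 CPM, 4 had 0 counts. Most of these sums came from Pdgfrb. Pdgfra rose by 0.63 on the log2 scale, while Pdgfrb and Vwf were not called, at 0.10 and -0.18. The part of these markers in the results below was not tested.

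Of the 10 JmjC genes, 7 rose in the cells with the Cdk10 guide, 1 fell and 2 did not pass the test. Kdm6b, Kdm3a, Kdm5b, Kdm4b, Kdm2a, Kdm2b and Kdm4c were higher, by 1.96-fold to 1.14-fold, Kdm4a was lower at 0.744-fold, and Kdm3b and Kdm5a were not called. The quasi-likelihood test of edgeR, adjusted by Benjamini-Hochberg, called 42.5% of all 13442 genes tested, 22.1% higher and 20.4% lower; DESeq2 called 30.8%, 16.1% higher and 14.7% lower, and a fit with the replicate number as a block 40.8%, 21.3% higher and 19.5% lower. Both gave the same 7 higher and 1 lower. The median log2 fold change of the 10 genes was 0.37, against -0.0031 over all tested genes. CPM of the groups did not overlap for 8 of the 10, 7 higher and 1 lower, against 51.3% of all genes tested, 26.6% higher and 24.8% lower. In bulk RNA, fewer cells that express a gene and less RNA per cell cannot be told apart. The labels do not say whether replicates were grown separately, and the p-values therefore speak only of variation among these 6 libraries, possibly technical.

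**Figure D1:**
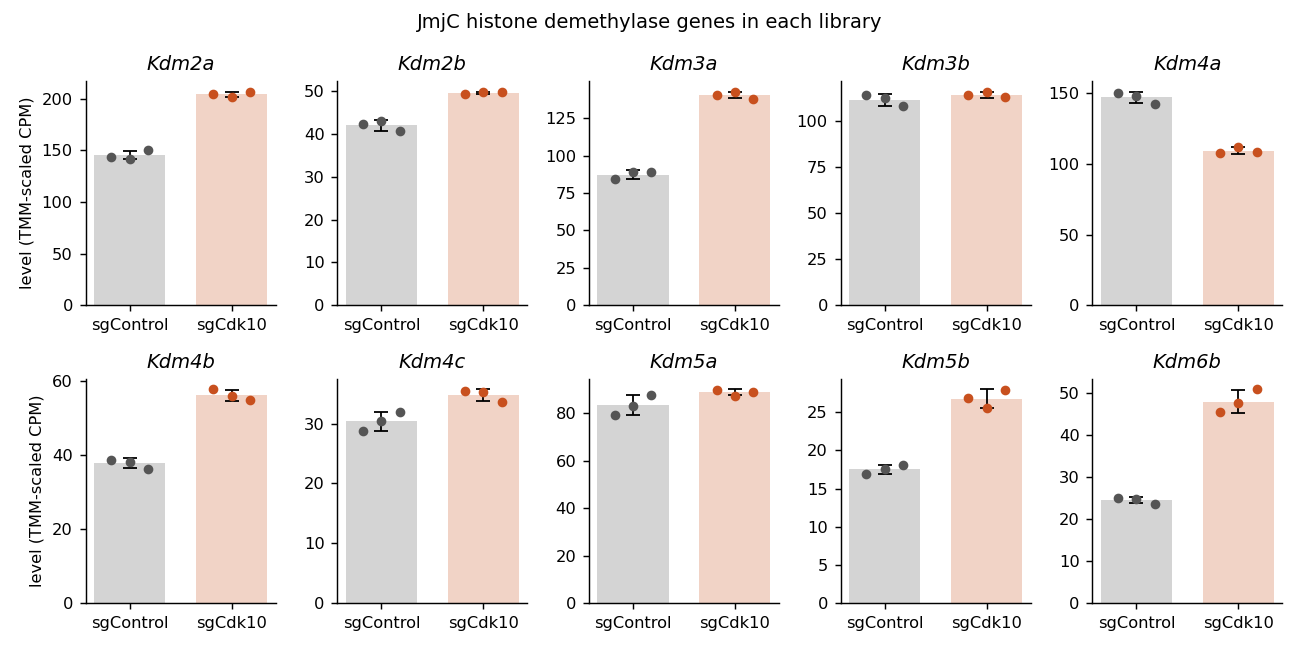
Level of each of the 10 genes in CPM (vertical axes, each from 0) in the 3 sgControl and 3 sgCdk10 libraries: points are libraries, bars the group mean and error bars the SD. The groups are apart for 8 genes, with Kdm4a the one that is lower in sgCdk10, and overlap for Kdm3b and Kdm5a.

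Kdm6b (gene coordinates here and for the other genes are in GRCm38, GENCODE M21: ENSMUSG00000018476, chr11:69398508-69413675, minus strand) encodes the inducible demethylase of trimethylated lysine 27 of histone H3, the mark set by Polycomb repressive complex 2. Its level was 25.0, 24.7 and 23.6 CPM in sgControl and 45.4, 47.4 and 50.8 in sgCdk10. Every sgCdk10 library lay far above every sgControl library, and the sgCdk10 libraries differed more among themselves. The rise was 0.97 in log2 units (SE 0.05, adjusted p = 4.48e-13), or 1.96-fold with a 95% interval of 1.81 to 2.12. This was the largest change of the 10, at the 98.2 percentile of the absolute log2 fold changes of all tested genes. The exons of Kdm6b overlap over 286 bases with those of the antisense gene Kdm6bos, which had 0 to 5 counts in a library.

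Kdm3a and Kdm3b, of the KDM3 subfamily, encode demethylases of mono- and dimethylated lysine 9; Kdm3a was called higher and Kdm3b was not called. Kdm3a (ENSMUSG00000053470, chr6:71588972-71632990, minus strand), a textbook HIF target, had 84.1, 89.2 and 88.8 CPM in sgControl and 141, 143 and 138 in sgCdk10. The groups were well apart, and Kdm3a rose by 0.68 in log2 units (SE 0.03, adjusted p = 5.13e-14), the smallest p among the 10. Kdm3b (ENSMUSG00000038773, chr18:34777047-34838660, plus strand) had 114, 113 and 108 CPM in sgControl and 114, 116 and 113 in sgCdk10. These groups overlapped, and the fold of 1.02 had a 95% interval of 0.976 to 1.07 (adjusted p = 0.441). Exons of Kdm3b overlap those of Gm26538 on the opposite strand over 3468 bases. Gm26538 was not among the gene identifiers of the count table.

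The KDM4 subfamily, which acts on trimethylated lysines 9 and 36, split in direction. Kdm4a (ENSMUSG00000033326, chr4:118136957-118180043, minus strand) had 150.4, 148 and 143 CPM in sgControl and 108, 112 and 109 in sgCdk10. All 3 sgCdk10 libraries lay below all 3 sgControl libraries, and Kdm4a fell by 0.43 in log2 units (SE 0.03, adjusted p = 2.15e-10). Kdm4b (ENSMUSG00000024201, chr17:56326062-56402870, plus strand), which the selection names as HIF-induced, had 38.7, 38.2 and 36.3 CPM in sgControl and 57.7, 55.9 and 54.8 in sgCdk10. It rose by 0.57 (SE 0.05; adjusted p = 4.20e-10), with groups well apart. Kdm4c (ENSMUSG00000028397, chr4:74242497-74405860, plus strand), the third HIF-induced gene of the selection, rose less: from 28.7, 30.5 and 31.9 to 35.4, 35.2 and 33.7 CPM, or 0.19 in log2 units (SE 0.05, adjusted p = 0.00511). Its groups came close to each other, and the change lay at the 57.6 percentile of absolute changes over all tested genes. With DESeq2 the adjusted p of Kdm4c was 0.0492, just under the threshold of 0.05.

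Among the genes for lysine 4 demethylases, Kdm5b rose and Kdm5a was not called. KDM5B is known for repressing genes at their promoters and for silencing retroelements together with SETDB1. Kdm5b (ENSMUSG00000042207, chr1:134560171-134635285, plus strand) had 16.9, 17.6 and 18.1 CPM in sgControl and 26.9, 25.6 and 28.0 in sgCdk10, a rise of 0.61 in log2 units (SE 0.06, adjusted p = 1.77e-08). Kdm5a (ENSMUSG00000030180, chr6:120364124-120444574, plus strand), the gene of a demethylase first found as a partner of the retinoblastoma protein, had 79.3, 83.3 and 87.6 CPM in sgControl and 90.0, 87.5 and 89.1 in sgCdk10. The highest sgControl library, replicate 3, lay just above the lowest sgCdk10 library. Its fold was 1.07 with a 95% interval of 1.01 to 1.13 (adjusted p = 0.0629). Without sgControl replicate 3 Kdm5a was called higher, at 0.12 on the log2 scale (adjusted p = 0.00353), and 8 of the 10 genes were then higher and 1 lower, where 44.3% of all genes were called, 22.1% higher and 22.2% lower. Exons of Kdm5a overlap those of Ccdc77 on the opposite strand over 251 bases.

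The KDM2 genes, whose proteins act on lysine 36 and bind unmethylated CpG islands through a CXXC zinc finger, were both higher. Kdm2a (ENSMUSG00000054611, chr19:4314419-4398285, minus strand) had 144, 142 and 150.2 CPM in sgControl and 205, 202 and 207 in sgCdk10, without overlap. Its rise was 0.49 in log2 units (SE 0.03, adjusted p = 4.61e-12). Kdm2b (ENSMUSG00000029475, chr5:122870665-122989823, minus strand), which recruits the variant Polycomb complex PRC1.1, had 42.3, 43.1 and 40.6 CPM in sgControl and 49.4, 49.8 and 49.7 in sgCdk10. It rose by 0.24 (SE 0.05; adjusted p = 0.000124). Exons of Kdm2b overlap those of Rnf34 and A930024E05Rik on the opposite strand over 826 bases in all, and those of Gm44574 on the same strand over 124 bases; Rnf34, with 530 to 716 counts, was at 0.14 in log2 units and not called (adjusted p = 0.0506).

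The 3 genes that the selection names as HIF-induced all rose, with log2 fold changes from 0.19 to 0.68 and a median of 0.57. Of the other 7 genes 4 rose, 1 fell and 2 were not called, with a median of 0.24 and a range from -0.43 to 0.97. Among all tested genes 22.1% were called higher and 20.4% lower. Whether the subsets differ was not tested. The largest rise, that of Kdm6b, was outside the HIF-induced genes, and the smallest called rise, that of Kdm4c, was among them. Members of a subfamily have related sequences, and how reads that map to more than 1 gene entered these whole-number counts was not tested.

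Correcting each library for GC content and length kept the 8 calls and their directions but lowered the 7 rises. Over all tested genes it called 44.4%, 19.5% higher and 24.9% lower, and the median log2 fold change went from -0.0031 to -0.021. The longest transcript of Kdm6b is 59.6% GC and that of Kdm4b 58.7%, the highest of the 10, and that of Kdm5a, at 43.3%, the lowest. With the correction Kdm6b had a log2 fold change of 0.77, Kdm3a of 0.66, Kdm5b of 0.47, Kdm4b of 0.45 and Kdm2a of 0.34. Kdm4a moved further from 0, to -0.49. Kdm3b and Kdm5a, not called in either fit, changed sign, to -0.062 and -0.038.

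**Figure D2:**
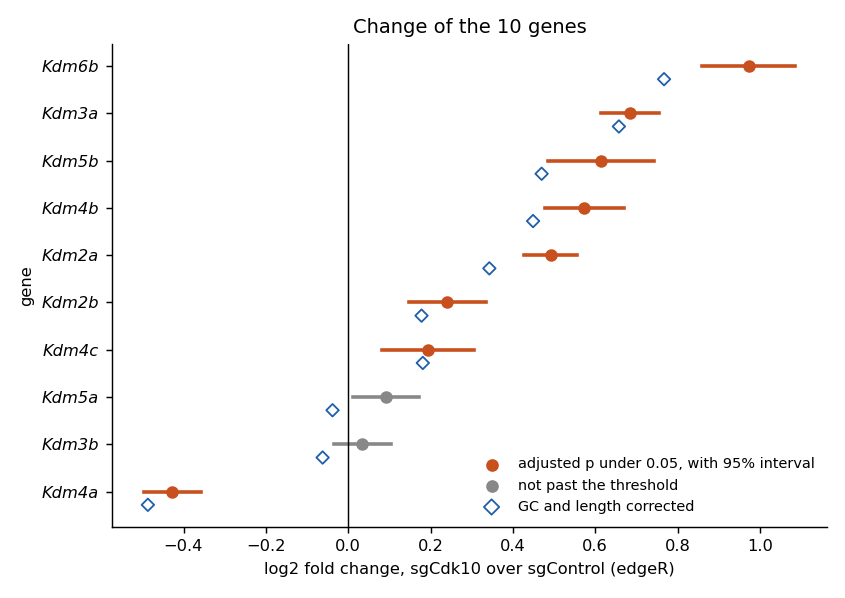
Log2 fold change of each gene, sgCdk10 over sgControl, from edgeR: filled points with 95% intervals, coloured where the adjusted p is under 0.05, and open diamonds with the GC and length correction. The 7 genes called higher lie to the right of 0 and Kdm4a to the left under both, while Kdm3b and Kdm5a lie close to 0 and change sign with the correction.

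Whether paralogues responded differently was measured by their count ratio within each library, in which library scaling cancels. The log2 ratio of Kdm4a to Kdm4b was 1.96 ± 0.011 (SD, n = 3) for sgControl and 0.96 ± 0.057 for sgCdk10, so the difference was -1.0, the largest of the 6 pairs. The ratio of Kdm3a to Kdm3b went from -0.35 ± 0.081 to 0.30 ± 0.0071 (SD, n = 3), so that Kdm3b had more counts than Kdm3a in sgControl and fewer in sgCdk10. For Kdm4a over Kdm4c the difference was -0.62, for Kdm5a over Kdm5b -0.52, for Kdm4b over Kdm4c 0.38 and for Kdm2a over Kdm2b 0.25. In each of the 6 pairs the libraries of the groups did not overlap. CPM of the groups did not overlap for 51.3% of all single genes tested, and the share for other pairs of genes was not tested. The KDM4 ratios are not independent, as each follows from the others. The exact two-sided permutation test gave p = 0.1 for each pair, also after adjustment over the 6, which is the smallest value that 3 libraries against 3 allow, so no pair could pass a threshold of 0.05.

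**Figure D3:**
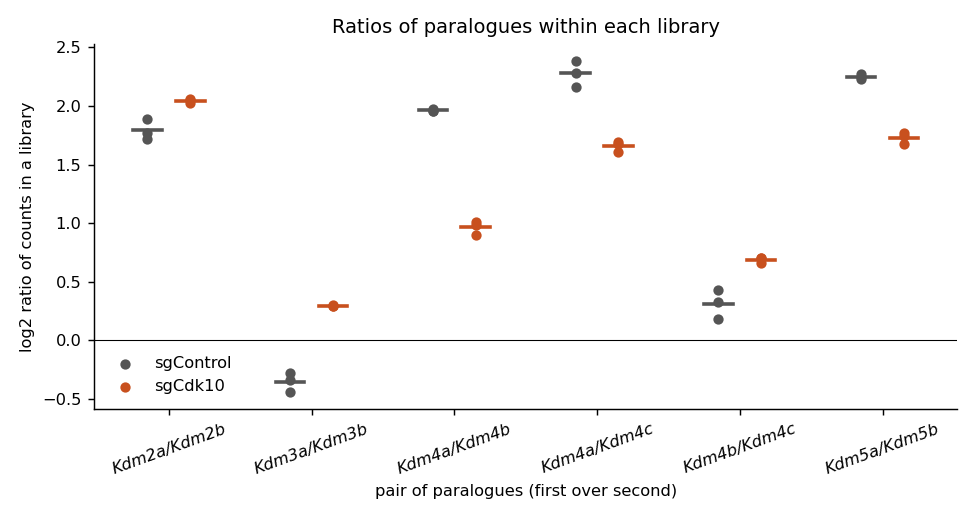
Log2 ratio of the counts of 2 paralogues within each library (points) and the group mean (lines) for 6 pairs. The groups are apart in every pair, and the ratio of Kdm3a to Kdm3b goes from below 0 in sgControl to above 0 in sgCdk10.

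Per length, in RPKM (CPM divided by the kilobases of merged exons), Kdm4a led the family in sgControl at 25.5 ± 0.685 (SD, n = 3). Kdm3a at 10.6 and Kdm2a at 10.1 RPKM followed, and their libraries overlapped. Kdm3b at 7.92 and Kdm4b at 7.71 overlapped as well, and below them came Kdm5a at 5.89, Kdm4c at 5.22, Kdm2b at 3.86, Kdm6b at 3.51 and Kdm5b at 1.06 RPKM, each apart from the next. In sgCdk10 no neighbours overlapped: Kdm4a had 18.9 RPKM, Kdm3a 17.1, Kdm2a 14.2, Kdm4b 11.5, Kdm3b 8.11, Kdm6b 6.88, Kdm5a 6.28, Kdm4c 5.97, Kdm2b 4.57 and Kdm5b 1.62. By merged exons Kdm6b moved from the ninth to the sixth place, but by the longest annotated transcript it was ninth in both groups, at 7.19 RPKM in sgCdk10. The share of Kdm4a in the summed RPKM of the 10 genes was 31.3% ± 0.735 in sgControl and 19.9% ± 0.365 in sgCdk10 (SD, n = 3), that of Kdm3a 13.1% and 18.0%, and that of Kdm6b 4.32% and 7.24%. The sum itself was 80.8 to 81.9 RPKM in sgControl and 94.8 to 95.6 in sgCdk10. The order depends on the length used: divided by the longest annotated transcript, Kdm3a led in sgCdk10 at 28.9 RPKM, with Kdm2a at 23.9 and Kdm4a at 23.5, while Kdm4a still led in sgControl at 31.6.

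**Figure D4:**
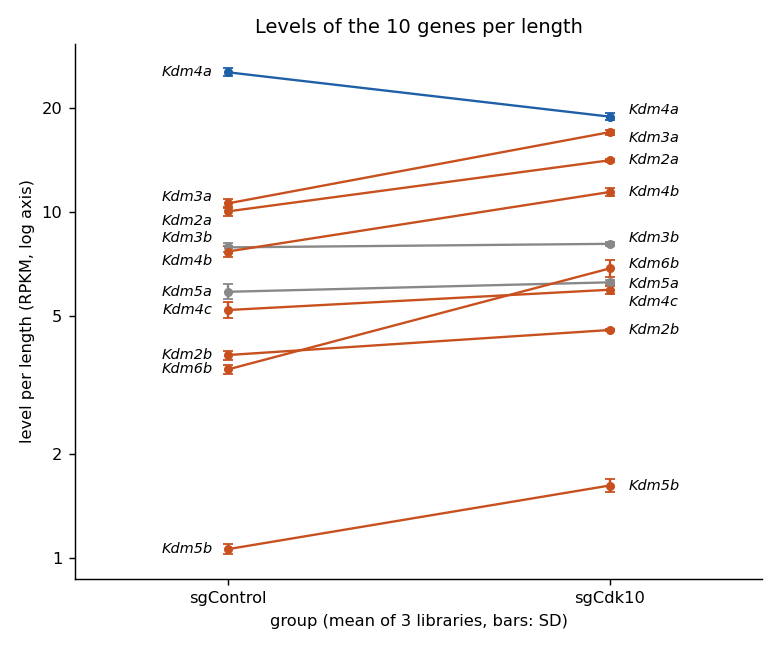
Level per length (RPKM over merged exons, log axis) of the 10 genes as group means with SD over 3 libraries; orange lines are called higher, the blue line called lower and grey lines not called. Kdm4a falls from 25.5 to 18.9 RPKM towards Kdm3a, which goes from 10.6 to 17.1, and Kdm6b crosses Kdm2b, Kdm4c and Kdm5a, which it does not do when levels are divided by the longest transcript.

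The promoters were searched for the core of the HIF binding site, ACGTG or GCGTG on either strand, in the 250 bases before each annotated start, which belongs to the selection's division into HIF-induced and other genes. RefSeq promoter windows (GRCm38.p6) were at hand for 5 of the 10 genes, Kdm2b, Kdm3a, Kdm4a, Kdm4c and Kdm5b, with 11 windows in all. A core was found in 7 of these windows, against 38.6% of the 32851 windows of that length in the table; ACGTG was in 16.6% and GCGTG in 28.2% of them. All 4 Kdm2b windows, 1 of 3 for Kdm3a, 1 of 2 for Kdm4c and the single Kdm5b window held a core, and the single Kdm4a window held none. These windows are not independent: 2 of the Kdm2b windows overlap almost fully and hold the same 2 matches, and 2 of the Kdm3a windows overlap in part. Upstream sequences of 1 gene that fell and of 3 that rose are shown 5′ to 3′ on the gene's strand, with the cores in capitals. Where a gene had more than 1 window, the one with the most cores is shown. Windows of Kdm3a and Kdm4c without a core are thus left out, while Kdm4a and Kdm5b had a single window. The sequences shown therefore cannot compare genes that rose with the gene that fell. Annotated exon bases are left out, except for Kdm3a, whose core lies in an annotated first exon and is shown in 30 bases.
Kdm3a, chr6:71632929-71632958, minus strand: gtccgggaggctgtGCGTGtcttgtgagag
Kdm4c, chr4:74251715-74251878, plus strand: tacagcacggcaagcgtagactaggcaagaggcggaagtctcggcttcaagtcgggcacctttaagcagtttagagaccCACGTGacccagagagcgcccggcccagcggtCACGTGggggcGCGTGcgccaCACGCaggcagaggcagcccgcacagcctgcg
Kdm5b, chr1:134559928-134560170, plus strand: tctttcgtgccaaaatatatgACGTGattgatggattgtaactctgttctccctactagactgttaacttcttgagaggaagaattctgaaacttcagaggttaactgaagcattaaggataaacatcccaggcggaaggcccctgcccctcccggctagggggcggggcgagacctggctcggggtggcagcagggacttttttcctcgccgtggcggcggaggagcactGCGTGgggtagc
Kdm4a, chr4:118180044-118180293, minus strand: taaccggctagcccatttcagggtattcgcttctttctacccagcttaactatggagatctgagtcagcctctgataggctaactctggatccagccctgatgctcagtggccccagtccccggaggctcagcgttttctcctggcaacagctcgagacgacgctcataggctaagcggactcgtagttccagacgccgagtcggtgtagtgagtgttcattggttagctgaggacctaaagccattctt

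Kdm4c, with the smallest rise of the genes that the selection names as HIF-induced, had the most cores in 1 of its 2 windows. They were 2 copies of CACGTG, 1 GCGTG and 1 CACGC, the reverse complement of GCGTG. Each CACGTG reads as ACGTG on both strands and is also an E-box. The bases just after this window's start were in no GENCODE M21 transcript of Kdm4c, while those after the start of its window without a core were. Kdm5b had ACGTG at 229 and GCGTG at 19 bases before its start. Kdm3a had 1 GCGTG in 1 of its 3 windows, 27 bases before that window's annotated start. A match of 5 letters is a description of the sequence, not a binding site, and windows of 250 bases leave out more distant elements.

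Outside the 10 genes, the other genes of JmjC proteins moved in both directions. Of 19 listed, 17 were tested, of which 5 rose, 3 fell and 9 were not called, with a median of 0.03 on the log2 scale. Kdm7a, a demethylase of lysines 9 and 27, rose by 0.97 and Jmjd6, a lysyl hydroxylase, by 0.79; Phf2 and Kdm5c, the X-linked relative of Kdm5a, each rose by 0.24, and by 0.12 and 0.14 with the GC and length correction. Kdm6a, the constitutive relative of Kdm6b, fell by 0.17 (adjusted p = 0.0213). The calls of the 3 that fell depended on the setting: 0 of this list were called lower with DESeq2 or without sgCdk10 replicate 2, and 1 without sgControl replicate 2. Of 6 genes of the amine oxidase demethylases, which need no oxoglutarate, and their CoREST partners, 5 rose and 1 fell, with a median of 0.25: the corepressors Rcor2 and Rcor1 rose by 0.86 and 0.51, Phf21a by 0.27 and the demethylase Kdm1b by 0.22.

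Of 12 other oxygen-dependent dioxygenase genes tested, 7 rose and 2 fell, with a median of 0.41 on the log2 scale; with the GC and length correction 7 were higher and 4 lower. The collagen hydroxylases Plod2, P4ha2 and P4ha1 rose by 1.20, 1.17 and 0.80, and the HIF prolyl hydroxylase Egln1 by 0.68. Of 17 tested HIF-induced genes outside the 10, 16 rose and 0 fell, where 22.1% of all tested genes were called higher and 20.4% lower. Their log2 fold changes ran from 0.075 to 2.69, with a median of 0.68, near the 0.68 of Kdm3a. DESeq2 called 14 higher, and fits with 1 library left out 13 to 15. Egln1 and P4ha1 stand in both this list and that of the dioxygenases. Bnip3, a mitophagy receptor, rose by 1.14, Mxi1, a MYC antagonist, by 1.04 and Ero1l, an oxidase of the endoplasmic reticulum, by 0.67. Of the genes of HIF subunits, Hif1a fell by 0.20 (SE 0.03, adjusted p = 1.59e-05) and Arnt was not called, at 0.03 (adjusted p = 0.578). Epas1 and Hif3a had at most 1 count in a library. Vhl, the ubiquitin ligase subunit that marks HIF for degradation, rose by 0.51. Levels of HIF protein were not measured. Arnt2 and Cited2 were not called, at -0.57 and -0.04. Arnt2 was called lower in 3 of 14 alternatives, the stricter filter, the GC and length correction and without sgControl replicate 2, and Cited2 in 1 of 14, without sgControl replicate 3.

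Enzymes that make or use 2-oxoglutarate, succinate and fumarate, the cosubstrate and inhibitors of JmjC enzymes, moved in both directions. Of 17 genes tested, 11 fell and 4 rose, with a median of -0.11; DESeq2 called 7 lower and 2 higher. Idh1, which makes 2-oxoglutarate from isocitrate in the cytosol, fell by 0.42, the aspartate aminotransferase gene Got1 by 0.25 and Idh3b by 0.23.

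Genes of the methyltransferases that set the marks removed by these enzymes moved in both directions. Of 10 genes for lysine 4 enzymes and their core subunits 5 rose and 3 fell, led by Kmt2d at 0.43 and Kmt2a at 0.24, while Ash2l fell by 0.20. With the GC and length correction 1 was higher and 5 lower: Kmt2d was at 0.14, Kmt2a at 0.039 and no longer called, and Setd1b, at 0.20 before, turned to -0.058. Of 7 lysine 9 methyltransferase genes 2 rose and 1 fell: Suv39h1 fell by 0.25, Setdb1 was not called at -0.08 but was called lower in 5 of 14 alternatives, and the rises of Prdm2 at 0.15 and Ehmt2 at 0.09 turned to -0.0065 and -0.060 with the correction, which gave 0 higher and 3 lower. The call of Ehmt2 as higher was lost with DESeq2, without sgControl replicate 3 and without any 1 of the sgCdk10 libraries. Of 6 genes of Polycomb repressive complex 2 1 rose and 1 fell, Ezh1 by 0.22 and Ezh2 by 0.17, with a median of -0.04. Of 5 lysine 36 methyltransferase genes 3 rose and 1 fell, and 1 was higher and 2 lower with the correction; Nsd1 rose by 0.56, Nsd3 by 0.19 and Ash1l by 0.14. With the correction Nsd3 was at 0.040 and no longer called, and Ash1l turned to -0.0021. Nsd2 fell by 0.08, and by 0.17 with the correction, a call kept in 9 of 14 alternatives; it was lost with DESeq2, without filtering, and without sgControl replicate 2, sgCdk10 replicate 1 or sgCdk10 replicate 3. Of 9 partners of KDM2B in PRC1.1 4 rose and 1 fell, with a median of 0.08: Bcorl1 rose by 0.91, Rybp by 0.27 and Rnf2 by 0.22, and Ring1 fell by 0.43.

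**Figure D5:**
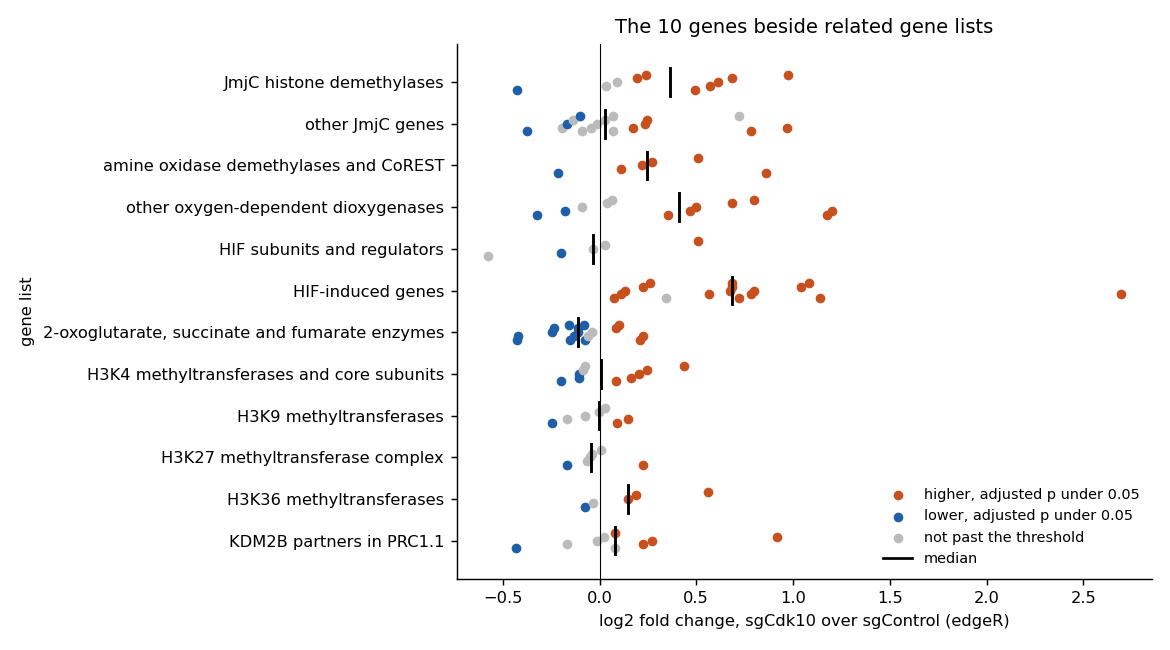
Log2 fold change of each tested gene (points, sgCdk10 over sgControl, edgeR) in the 10 JmjC genes and 11 related lists, with the median of each list as a line; colours mark calls. The medians of the 10 genes, of other dioxygenases and of HIF-induced genes lie between 0.37 and 0.68, and those of the lysine 4, 9 and 27 methyltransferase lists within 0.05 of 0; the rises of Setd1b, Prdm2, Ehmt2 and Ash1l turn to below 0 with the GC and length correction.

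The genes whose level followed that of Kdm3a, the JmjC gene with the smallest p, most closely across the 6 libraries were Ifitm1 (Pearson r = 0.9994 of log2 CPM), Pdk1 (r = 0.9992) and Fndc3a (r = 0.9991). The 6 points fall into the 2 groups and share their libraries, and 1246 of 13244 genes had an r above 0.95 with Kdm3a. Pdk1, a HIF-induced kinase of pyruvate dehydrogenase, had a log2 fold change of 0.78.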

How the data were processed

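The authors deposited 1 table of raw counts per gene for 6 RNA-seq libraries. Per the submitters' processing notes, mm10 was the build, and featureCounts 2.0.3, HISAT2 2.2.1 and DESeq2 1.40.2 were used; annotation release and strand setting are unstated there and in the labels. Symbols, coordinates and lengths came from GENCODE M21 (GRCm38), which named 52081 of 57010 identifiers; the rest held at most 0.236% of a library's counts. Aldoa, with 2 identifiers, was left out of its list. Groups and replicate numbers are from the titles, which give no batch.

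Genes were kept by filterByExpr (minimum count 10, total 15), scaled by TMM and tested with edgeR 4.0.16 (robust quasi-likelihood, group as the only term, Benjamini-Hochberg adjustment, threshold 0.05). SE was derived from the fold change and F. A positive log2 fold change means higher in sgCdk10. Scripts were tested on simulated data. Alternatives were DESeq2-type size factors, DESeq2 1.42.0, limma-voom (limma 3.58.1), other filters, non-robust dispersions, a replicate block, leaving out each library, and a loess correction (span 0.5) for GC content and length of the longest transcript. Named genes are Cdk10, the 10 members, the 4 smallest p-values of each list and the 3 genes most like the member with the smallest p. Cdh1, Epcam, Adgre1, Cd3e, Ptprc, Kdm6a, Arnt, Epas1, Hif3a and exon-overlap partners were named after their values were seen. One gene that the rule names is not reported here. The members and lists were chosen with earlier results of these data known.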

Additional observations from a re-analysis of the deposited data

How the results depend on the processing

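Leaving out 1 library gave 4791 to 6056 changed genes, a Cdk10 log2 fold change of -0.90 to -0.75, and 7 to 8 members higher with 1 lower; Kdm5a, the one whose call changed, ranged from 0.055 to 0.12. The fit with the replicate block gave 5481 changed genes, a Cdk10 value of -0.82 and the same 7 higher and 1 lower members, and changed no member's call. After subtraction of group means, libraries sharing a number had correlations of 0.05, -0.08 and -0.10, and some were closer to another number, so the numbers were not taken as pairs. Of 140 refits of single members, 137 kept direction and side of the threshold. The GC and length correction turned Kdm3b to -0.062, Kdm5a to -0.038, Setd1b to -0.058, Ehmt2 to -0.060, Prdm2 to -0.0065 and Ash1l to -0.0021; it moved the median of the 10 members to 0.26 and the differences in log2 ratio to 0.17 for Kdm2a/Kdm2b and -0.94 for Kdm4a/Kdm4b; the cause was not tested. With a library left out, the uncalled markers Vwf and Cd14 ranged from -0.32 to 0.11 and from -0.051 to 0.061. With 3 libraries a group, the 95% interval of an uncalled member still spans 0.976 to 1.07-fold for Kdm3b and 1.01 to 1.13-fold for Kdm5a.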
